A study of Mus musculus with 12 samples.

Results

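The genes described here are 38 regulators, membrane proteins, enzymes and maturation factors of red cell precursors, chosen by gene symbol. A gene was kept when it reached 1 FPKM, a level corrected for gene length and sequencing depth, in at least 3 of 12 samples. Of the 38, 37 had a row in the expression table and all 37 were kept, among 11767 kept genes of 24421 entries. Ahsp, which encodes a chaperone of alpha-globin, had no row under its symbol and is not analysed here. The RNA came from whole bone marrow of C57BL/6 mice in 4 groups of 3 samples. The Aged-TBI group held aged mice with traumatic brain injury and the Aged-CON group aged controls. The Young-TBI group held young mice with the same injury and the Young-CON group young controls. Marrow of the injured mice was taken 3 days after the injury was made. The labels name no other treatment or allele and give neither the mice's ages in months nor what the controls underwent, nor whether each sample was a separate animal. The spread that the p-values are set against may therefore be technical.

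Red cells are made in the marrow from progenitors that depend on erythropoietin, a hormone that acts through its receptor on the progenitor surface. A small set of transcription factors, with GATA1, TAL1, LMO2 and KLF1 at its core, switches on the genes of haemoglobin synthesis, of the membrane and of its spectrin skeleton. Late precursors then condense and expel the nucleus and clear mitochondria and ribosomes with the help of ubiquitin ligases and autophagy receptors. Marrow is a standard site of this process in the adult mouse, and the genes below are, in the main, transcribed in erythroblasts. Gata1, Nfe2, Tal1, Gfi1b and Lmo2 are also used by megakaryocytes, the cells that make platelets.

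GATA factors bind DNA next to many erythroid genes, so the promoters of the genes were searched for GATA motifs. RefSeq (GRCm38.p6) gave promoters, from 250 bases before to 50 bases after a transcription start, for 26 of the 37 genes. A GATA motif (AGATAA or TGATAA, either strand) was present in a promoter of 15 of these 26 genes, or 57.7%. It was present for 12.7% of the 8860 tested genes with such a promoter and for 20.96% of all 27025 genes in the RefSeq table. A KLF1 motif (CCNCNCCC, either strand) was present for 69.2% of the 26 genes and for 71.2% of the tested genes and 51.9% of all. An NFE2 motif (TGAGTCA or TGACTCA, which are the same site read on the 2 strands) was present for 7.69% of the 26 genes and 4.53% of the tested genes and 5.95% of all. A match is a run of letters, not a measured binding site, and genes can have more than 1 promoter in the table.

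The 4 promoters shown belong to the genes with the smallest p-values in the aged or age comparison that held a GATA match. They are written 5′ to 3′ on the strand of the gene, with the GATA match in capitals (TTATCT is AGATAA read on the other strand).
Tmcc2, chr1:132367899-132368198, minus strand: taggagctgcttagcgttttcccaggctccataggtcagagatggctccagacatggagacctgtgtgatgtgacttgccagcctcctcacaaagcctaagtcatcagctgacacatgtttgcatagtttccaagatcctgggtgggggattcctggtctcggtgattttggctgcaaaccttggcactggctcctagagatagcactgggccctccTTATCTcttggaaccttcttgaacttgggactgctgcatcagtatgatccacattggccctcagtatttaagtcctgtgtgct
Trim10, chr17:36869324-36869623, plus strand: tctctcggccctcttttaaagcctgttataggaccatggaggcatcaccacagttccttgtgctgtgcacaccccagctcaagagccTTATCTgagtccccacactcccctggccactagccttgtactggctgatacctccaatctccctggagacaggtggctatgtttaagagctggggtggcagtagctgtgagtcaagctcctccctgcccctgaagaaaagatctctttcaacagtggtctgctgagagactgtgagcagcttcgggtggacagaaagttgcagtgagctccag
Epb42, chr2:121036828-121037127, minus strand: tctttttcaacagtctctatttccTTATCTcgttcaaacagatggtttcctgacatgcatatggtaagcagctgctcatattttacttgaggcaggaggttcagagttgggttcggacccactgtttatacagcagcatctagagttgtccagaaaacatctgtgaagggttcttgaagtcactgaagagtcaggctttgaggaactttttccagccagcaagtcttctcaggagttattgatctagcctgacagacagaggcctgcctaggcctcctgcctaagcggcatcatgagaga
Icam4, chr9:21029182-21029481, plus strand: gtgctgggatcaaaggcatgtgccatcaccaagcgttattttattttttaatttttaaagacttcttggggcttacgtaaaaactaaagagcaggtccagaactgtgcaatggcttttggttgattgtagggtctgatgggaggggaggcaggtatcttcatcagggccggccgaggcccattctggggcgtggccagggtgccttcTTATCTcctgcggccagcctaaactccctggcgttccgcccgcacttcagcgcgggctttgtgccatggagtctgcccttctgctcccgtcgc
Counted from the RefSeq start of the promoter shown, the match began 33 bases before it in Tmcc2 and 43 bases before it in Icam4. It began 163 bases before that start in Trim10 and 226 bases before it in Epb42. For Tmcc2, Icam4 and Epb42 this start differs from the beginning of the gene in the GENCODE positions given below. Tmcc2 has 3 promoters in the table, and the match lay in 1 of them. Trim10, a gene of terminal red cell differentiation, also held an NFE2 motif in this window.

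The samples held 12.3 to 15.8 M recovered fragments, and the genes described here had between 244 (Icam4) and 77486 fragments in a sample. Chi-square per degree of freedom was 4.46 to 47.9 for the 12 pairs of samples that share a group, above the 1 that counting alone would give, so none was treated as a repeat of another. Libraries of the same group stood apart in the erythroid genes. Aged-CON 1 lay above Aged-CON 2 and 3 in 37 of 37 genes, Young-CON 2 below Young-CON 1 and 3 in 37 of 37, and Young-TBI 3 below Young-TBI 1 and 2 in 37 of 37. The mean log2(FPKM + 1) over the 37 genes was 7.02, 7.09 and 7.10 in the 3 Aged-TBI samples, against 6.85, 6.03 and 6.05 in Aged-CON. It was 6.35, 6.33 and 5.93 in Young-TBI, against 6.66, 5.81 and 6.54 in Young-CON. As group means this was 7.07 ± 0.04 in Aged-TBI, 6.31 ± 0.47 in Aged-CON, 6.20 ± 0.24 in Young-TBI and 6.34 ± 0.46 in Young-CON (SD, n = 3 each). The 3 Aged-TBI samples were the 3 highest of all 12 in 32 of the 37 genes, and 1 of them was the highest of 12 in 36. The remaining gene, Bpgm, was highest in Young-CON 1. Young-CON 2 was the lowest of 12 in 26 genes, Young-TBI 3 in 8 and Aged-CON 2 in 3. The shares of all tested genes in these orders were not counted, so the orders are not shown to be particular to the 37 genes. Aged-CON 1 also stood apart over the whole table, with chi-square per degree of freedom of 43.5 and 47.9 against Aged-CON 2 and 3. In whole marrow, a larger share of erythroid cells and more of these RNAs per erythroid cell cannot be told apart.

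**Figure D1:**
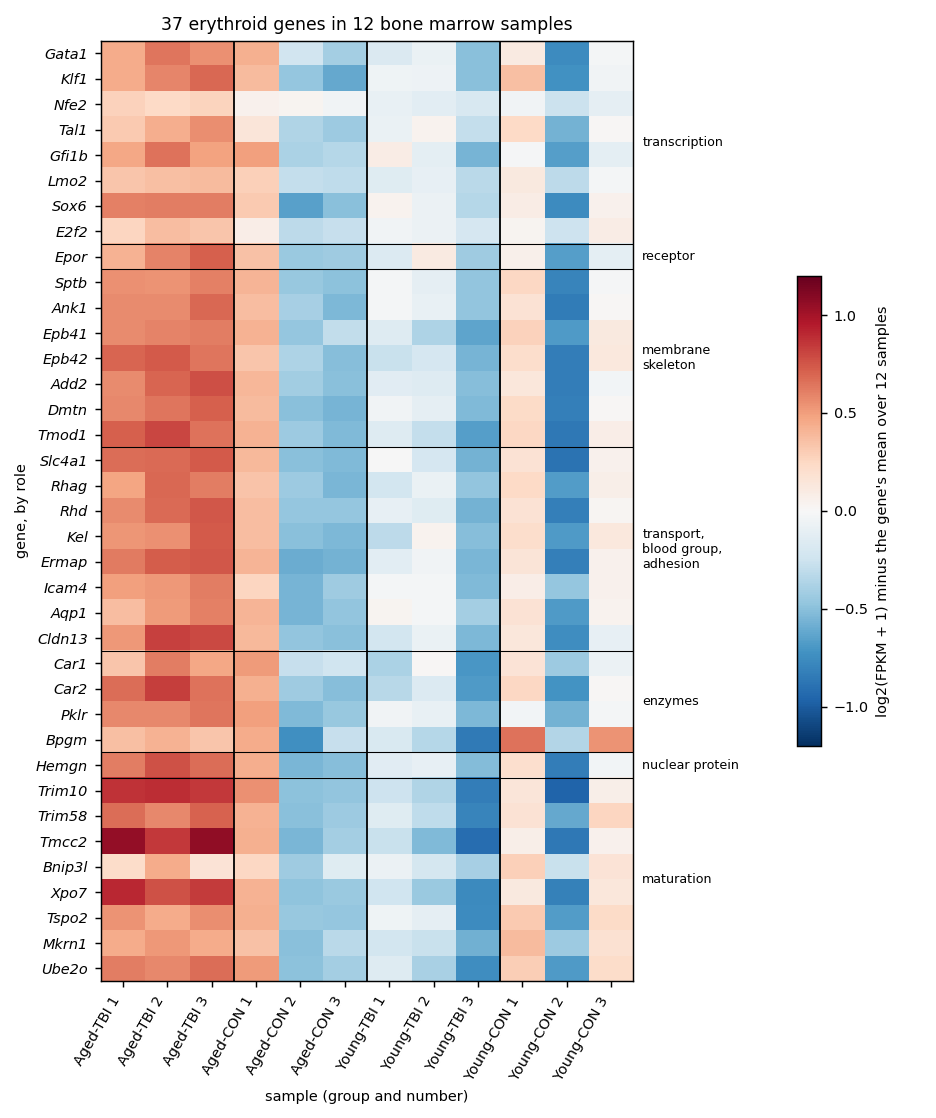
Each cell is the log2(FPKM + 1) of a gene (rows, grouped by role) in a sample (columns, by group) minus that gene's mean over the 12 samples. The 3 Aged-TBI columns are the highest in 32 of 37 genes, Aged-CON 1 is among the 4 highest of 12 in 34 genes, and Young-CON 2 is the lowest column in 26 genes. Shares of all tested genes in these orders were not counted.

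The first comparison asks how injury moved these genes in aged marrow. All 37 lay above Aged-CON in the mean of Aged-TBI, and none passed the test: at an adjusted p under 0.05 in limma, with Benjamini-Hochberg adjustment over all genes, 0 of 37 were called, where 0.323% of all tested genes were. At an unadjusted p under 0.05, 34 of 37 were higher, where 10.8% of all genes were. In 32 of 37 all 3 Aged-TBI samples exceeded all 3 Aged-CON samples, where 9.19% of all genes were separated in that direction. The median log2 change was 0.80, from 0.25 for Nfe2 to 1.16 for Tmcc2, and the median over all tested genes was −0.02. The smallest adjusted p belonged to E2f2 (0.096).

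A single control library decided these calls. Aged-CON 1 was the highest aged control in all 37 genes, so leaving it out raises each difference by construction. Without Aged-CON 1, limma called 37 of 37 genes higher, where 14.9% of all genes were called higher in that fit, and the median log2 change was 1.09. Only 2 Aged-CON samples were left in that fit. As in the main fit, 1 estimate of the spread was shared by all 4 groups, and Aged-CON 1 no longer entered it. Calls over all tested genes, in either direction, went from 38 to 3266, so the rise in calls was not particular to the 37 genes. The Aged-TBI mean divided by the value of Aged-CON 1 had a median of 1.18 over the 37 genes, from 0.947 for Bpgm to 1.48 for Tmcc2. Against the mean of Aged-CON 2 and 3, Aged-CON 1 itself was higher by a median factor of 1.87, from 1.04 for Nfe2 to 2.06 for Pklr. In 32 genes, then, Aged-TBI marrow exceeded every aged control, and the median distance to the nearest control was smaller than that between the controls.

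The second comparison asks how age changed the marrow of injured mice. Here 17 of 37 genes rose in Aged-TBI relative to Young-TBI marrow at an adjusted p under 0.05 in limma, and 0 fell, where 2.97% of all tested genes rose. In all 37 genes the 3 Aged-TBI samples exceeded the 3 Young-TBI samples, where 13.4% of all genes were separated in that direction. The median log2 change was 0.83 (all tested genes −0.05), and the ratio of group means ran from 1.32 for Nfe2 to 2.92 for Tmcc2, with a median of 1.80. By role, 6 of 8 maturation genes rose, 4 of 7 genes of the membrane skeleton, 2 of 4 enzymes, 3 of 8 transcription regulators and 2 of 8 transporters, blood group and adhesion proteins. Epor and Hemgn did not pass. Some other genes lay just past the threshold, such as Icam4 (adjusted p = 0.0519 in limma) and Rhag (0.0535), so these counts do not rank the roles. Both comparisons use the same Aged-TBI samples and are not independent.

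How many genes passed depended on single libraries. The count was 2 without Young-TBI 3, where 0.501% of all genes were called higher. It was between 2 and 6 without any other sample of Young-TBI or of Aged-TBI, where 73 to 210 of all 11767 genes were called higher. It was 37 without Aged-CON 1, which is not in the comparison but enters the shared estimate of the spread, 32 without Young-CON 2 and 11 without Young-CON 3. In those fits 775, 469 and 258 of all genes were called higher, in the same order. Tmcc2 and Nfe2 passed in all 12 fits that left out a sample. Xpo7 passed in 9 of them and Trim10 in 8, and these 4 genes passed under all 12 other settings tried.

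**Figure D2:**
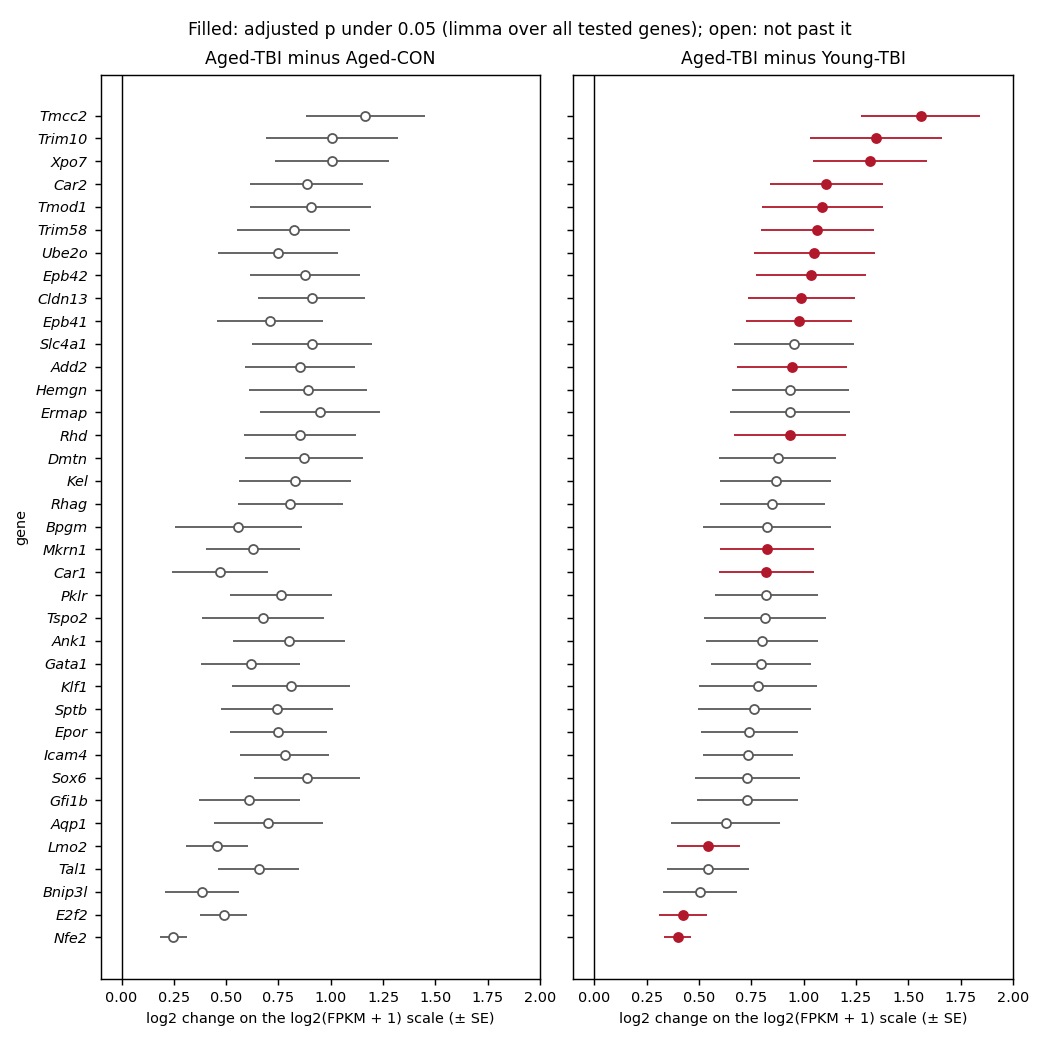
Points are log2 changes on the log2(FPKM + 1) scale and bars their standard errors from limma, for Aged-TBI minus Aged-CON (left) and Aged-TBI minus Young-TBI (right), with genes ordered by the right panel. All 37 points lie above 0 in both panels, and only the right panel holds filled points, the 17 genes past the threshold.

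The 8 transcription regulators had a median log2 change of 0.64 with age after injury, the lowest of the roles with more than 1 gene. Of these 8 genes 3 rose, where 2.97% of all tested genes rose. Gata1, the master regulator of red cell and megakaryocyte genes (GRCm38 chromosome X, 7959260 to 7978071), was at 65.4, 75.04 and 70.4 FPKM in Aged-TBI marrow, against 64.6, 40.6 and 35.6 FPKM in Aged-CON marrow. Young mice had 42.3, 45.1 and 33.4 FPKM in Young-TBI marrow, against 51.5, 27.8 and 46.8 FPKM in Young-CON marrow. Its Aged-TBI samples lay above all others, the lowest of them only just above Aged-CON 1, and the change did not pass in either comparison (injury in aged mice log2 change 0.62, SE 0.24, adjusted p = 0.155; age after injury log2 change 0.80, SE 0.24, adjusted p = 0.056). Klf1, an activator of beta-globin and of many membrane genes (GRCm38 chromosome 8, 84901928 to 84905291), was at 142, 156 and 168 FPKM in Aged-TBI marrow, against 135, 74.99 and 67.5 FPKM in Aged-CON marrow. Levels in young mice were 100.1, 99.5 and 72.8 FPKM in Young-TBI marrow, against 134, 62.2 and 101 FPKM in Young-CON marrow. The 3 Aged-TBI samples were again the highest, while Young-CON 1 nearly reached Aged-CON 1, and the age change did not pass (log2 change 0.78, SE 0.28, adjusted p = 0.0979).

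Nfe2, the large subunit of a factor that binds the globin locus control region (GRCm38 chromosome 15, 103248212 to 103258403), was at 153, 149 and 153 FPKM in Aged-TBI marrow, against 131, 129.8 and 123 FPKM in Aged-CON marrow. The young groups were at 119, 116 and 111 FPKM in Young-TBI marrow, against 123, 106 and 117 FPKM in Young-CON marrow. Its 4 groups had small spreads, Aged-CON 1 stood near Aged-CON 2 and 3, and the highest sample was only 1.45 times the lowest, the narrowest range of the 37 genes. It had the smallest change and the smallest adjusted p in the age comparison (log2 change 0.40, SE 0.06, adjusted p = 0.00504). The injury change in aged mice was 0.25 (SE 0.06, adjusted p = 0.103). E2f2, which controls cell cycle exit in erythroblasts (GRCm38 chromosome 4, 136172394 to 136196057), was at 148, 161 and 156 FPKM in Aged-TBI marrow, against 131, 99.2 and 102 FPKM in Aged-CON marrow. Young mice had 119.9, 118 and 108 FPKM in Young-TBI marrow, against 126, 104 and 132 FPKM in Young-CON marrow. It rose with age after injury (log2 change 0.42, SE 0.11, adjusted p = 0.0375). Lmo2, the bridging protein of the TAL1 and GATA1 complex, averaged 184 ± 2.89 FPKM in Aged-TBI and 126 ± 10.3 FPKM in Young-TBI marrow (SD, n = 3 each) and rose as well (log2 change 0.54, SE 0.15, adjusted p = 0.0419).

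The other 3 regulators did not pass. Tal1, the helix-loop-helix partner of GATA1, averaged 88.6 ± 7.38 FPKM in Aged-TBI, 56.7 ± 13.2 in Aged-CON, 60.6 ± 6.94 in Young-TBI and 62.04 ± 16.8 in Young-CON (SD, n = 3 each; age after injury log2 change 0.54, SE 0.19, adjusted p = 0.096). Gfi1b, a repressor needed by red cells and platelets, was at 35.1, 40.1 and 35.6 FPKM in Aged-TBI marrow, against 35.8, 19.1 and 19.6 FPKM in Aged-CON marrow, so that Aged-CON 1 lay within the Aged-TBI range. Its change with age after injury was 0.73 (SE 0.24, adjusted p = 0.076). Sox6, which silences embryonic globin genes, held the lowest single value of the 37 genes, 8.87 FPKM in Young-CON 2, and the 3 Aged-TBI samples were nearly equal. It was at 24.2, 24.4 and 24.5 FPKM in Aged-TBI marrow, against 19.7, 9.60 and 10.8 FPKM in Aged-CON marrow (age after injury log2 change 0.73, SE 0.25, adjusted p = 0.0864).

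Among cofactors and further regulators of red cell genes, few passed the test. In the age comparison after injury, 2 of 14 rose, 1 fell and 11 did not pass. Over all tested genes 2.97% rose and 6.93% fell, so 1 fall in 14 is near the share of all genes. The median log2 change over the 14 was −0.07. The highest change of the 14, named after its values were seen, was that of Zfpm1, the GATA1 cofactor FOG1, at 119, 117 and 133 FPKM in Aged-TBI marrow, against 117, 64.4 and 58.5 FPKM in Aged-CON marrow. It was at 82.9, 83.1 and 63.8 FPKM in Young-TBI marrow, against 108, 59.2 and 95.5 FPKM in Young-CON marrow, so the same libraries were high and low as for Gata1, and its age change after injury did not pass (log2 change 0.68, SE 0.26, adjusted p = 0.107). Gata2, which acts in progenitors before GATA1, was at 12.2, 11.4 and 12.4 FPKM in Aged-TBI and 7.73, 8.84 and 7.59 FPKM in Young-TBI marrow (log2 change 0.52, SE 0.08, adjusted p = 0.00337). The low samples were those of Young-TBI, where Gata2 fell relative to Young-CON at 12.7, 12.6 and 11.8 FPKM (log2 change −0.56, SE 0.08, adjusted p = 0.004). Foxo3, a regulator of the oxidative stress response in erythroblasts, rose (log2 change 0.63, SE 0.16, adjusted p = 0.0307). Myb, a progenitor factor, fell (log2 change −0.47, SE 0.08, adjusted p = 0.00595). Kit, the stem cell factor receptor of early progenitors, was at 19.9, 17.97 and 19.1 FPKM in Aged-TBI and 16.97, 16.9 and 16.1 FPKM in Young-TBI marrow and did not pass (log2 change 0.18, SE 0.08, adjusted p = 0.152). Between uninjured mice, 4 of the 14 fell in Aged-CON relative to Young-CON (Myb, Ikzf1, Bcl11a and Cbfa2t3, log2 changes −0.53, −0.29, −0.42 and −0.32), where 4.19% of all tested genes fell.

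Epor, the erythropoietin receptor (GRCm38 chromosome 9, 21958897 to 21963506), was at 61.97, 70.1 and 76.5 FPKM in Aged-TBI marrow, against 59.2, 33.5 and 34.1 FPKM in Aged-CON marrow. Among young samples it had 40.97, 49.6 and 34.00 FPKM in Young-TBI marrow, against 47.99, 28.7 and 42.4 FPKM in Young-CON marrow. All Aged-TBI samples exceeded all others, and neither change passed (injury in aged mice log2 change 0.75, SE 0.23, adjusted p = 0.119; age after injury log2 change 0.74, SE 0.23, adjusted p = 0.064). Among 13 tested genes of erythropoietin signalling and its STAT5 targets, 1 rose with age after injury, 1 fell and 11 did not pass, with a median of −0.03. As 2.97% of all tested genes rose and 6.93% fell, 1 fall in 13 is near the share of all genes. The gene that rose was Bcl2l1, the survival protein BCL-XL of late erythroblasts, at 77.9, 84.01 and 84.4 FPKM in Aged-TBI and 48.9, 45.4 and 37.8 FPKM in Young-TBI marrow (log2 change 0.89, SE 0.23, adjusted p = 0.0326). The kinase gene Lyn, expressed in many myeloid and B cells, fell (log2 change −0.40, SE 0.11, adjusted p = 0.0414).

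The membrane skeleton is a mesh of spectrin and short actin filaments under the red cell membrane. Its 7 genes had age changes after injury from 0.76 to 1.09 with a median of 0.95, and 4 rose, where 2.97% of all tested genes rose. Epb42, a protein that ties the band 3 anion exchanger to ankyrin (GRCm38 chromosome 2, 121017891 to 121037072; its promoter is printed above), was at 129, 133 and 124 FPKM in Aged-TBI marrow, against 100.01, 60.9 and 55.2 FPKM in Aged-CON marrow. Young samples reached 65.8, 68.8 and 53.5 FPKM in Young-TBI marrow, against 92.04, 44.3 and 86.4 FPKM in Young-CON marrow. All Aged-TBI samples lay above all others, and the age change after injury passed (log2 change 1.03, SE 0.26, adjusted p = 0.032). Epb41, which joins spectrin to actin, averaged 227 ± 3.69 FPKM in Aged-TBI, against 116 ± 19.2 in Young-TBI (SD, n = 3 each), and rose (log2 change 0.98, SE 0.25, adjusted p = 0.035). Tmod1, which caps the slow-growing ends of the actin filaments, was at 29.7, 31.4 and 28.3 FPKM in Aged-TBI and 15.8, 14.3 and 10.8 FPKM in Young-TBI marrow and rose (log2 change 1.09, SE 0.29, adjusted p = 0.0367). Add2, the beta chain of the capping protein adducin, was at 31.9, 34.95 and 36.7 FPKM in Aged-TBI and 19.2, 18.9 and 14.6 FPKM in Young-TBI marrow and rose too (log2 change 0.95, SE 0.26, adjusted p = 0.0435).

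The other 3 genes of the skeleton did not pass. Sptb, beta-spectrin (GRCm38 chromosome 12, 76580488 to 76710547), was at 86.7, 86.2 and 90.1 FPKM in Aged-TBI marrow, against 78.4, 42.7 and 41.7 FPKM in Aged-CON marrow. In young mice it was at 58.1, 54.7 and 42.2 FPKM in Young-TBI marrow, against 70.2, 33.6 and 58.5 FPKM in Young-CON marrow. The Aged-TBI samples were close together and above all others, and the age change was 0.76 (SE 0.27, adjusted p = 0.091). Ank1, ankyrin, averaged 80.5 ± 3.93 FPKM in Aged-TBI and 46.1 ± 7.58 FPKM in Young-TBI marrow (SD, n = 3 each), and its age change was 0.80 (SE 0.27, adjusted p = 0.078). Dmtn, the actin-bundling protein dematin, averaged 80.9 ± 4.12 FPKM in Aged-TBI and 44.1 ± 7.82 FPKM in Young-TBI marrow (log2 change 0.88, SE 0.28, adjusted p = 0.0697). Tmod1, Ank1 and Sptb each overlap a weaker tested gene on the other strand (Tstd2, Gm15816 and Plekhg3), as Xpo7 does Dok2. Whether fragments were assigned by strand is not given in the sources used here, so fragments of the neighbours cannot be told apart from those of these 4 genes.

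Among the membrane transporters, blood group and adhesion proteins, age changes after injury ran from 0.63 to 0.99. Of these genes 2 of 8 rose, where 2.97% of all tested genes rose. Slc4a1, the band 3 anion exchanger that swaps bicarbonate for chloride (GRCm38 chromosome 11, 102348824 to 102366203), was at 1146, 1149.7 and 1197 FPKM in Aged-TBI marrow, against 941, 508 and 496 FPKM in Aged-CON marrow. Young mice had 716, 625 and 484 FPKM in Young-TBI marrow, against 810.3, 389 and 747 FPKM in Young-CON marrow. It was the strongest of the membrane genes in FPKM, its injured aged samples stood apart from all others, and neither change passed (injury in aged mice log2 change 0.91, SE 0.29, adjusted p = 0.123; age after injury log2 change 0.95, SE 0.29, adjusted p = 0.0577). Rhd, the Rh blood group protein, was at 245, 265 and 276 FPKM in Aged-TBI marrow, against 213, 119 and 119 FPKM in Aged-CON marrow, and at 154, 149 and 111 FPKM in Young-TBI marrow. It rose with age after injury (log2 change 0.93, SE 0.27, adjusted p = 0.0483). Cldn13, a claudin of mouse erythroid cells, was at 164, 202 and 198 FPKM in Aged-TBI and 97.8, 108 and 78.2 FPKM in Young-TBI marrow and rose (log2 change 0.99, SE 0.26, adjusted p = 0.0343).

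The other 6 genes of this role did not pass. Icam4, the adhesion protein of the LW blood group through which erythroblasts bind macrophages (GRCm38 chromosome 9, 21029373 to 21030595; promoter above), was at 42.7, 43.4 and 46.4 FPKM in Aged-TBI marrow, against 36.2, 20.1 and 22.1 FPKM in Aged-CON marrow. Levels in young mice were 29.5, 29.6 and 20.4 FPKM in Young-TBI marrow, against 31.8, 21.5 and 31.1 FPKM in Young-CON marrow. The groups of aged mice did not overlap, and the age change after injury did not pass (log2 change 0.73, SE 0.21, adjusted p = 0.0519). Rhag, the Rh-associated gas channel, averaged 151 ± 11.6 FPKM in Aged-TBI and 83.7 ± 11.4 FPKM in Young-TBI marrow (log2 change 0.85, SE 0.25, adjusted p = 0.0535). Kel, the Kell endopeptidase, averaged 164 ± 13.2 FPKM in Aged-TBI and 90.6 ± 18.1 FPKM in Young-TBI marrow (log2 change 0.87, SE 0.27, adjusted p = 0.0618). Ermap, which carries the Scianna blood group, averaged 164 ± 7.43 FPKM in Aged-TBI and 86.3 ± 15.5 FPKM in Young-TBI marrow (log2 change 0.93, SE 0.29, adjusted p = 0.0604; all ± SD, n = 3). Aqp1, a water channel that endothelium also makes, was at 284, 313 and 334 FPKM in Aged-TBI marrow, against 292, 149 and 158 FPKM in Aged-CON marrow. Aged-CON 1 lay inside the Aged-TBI range, and Aqp1 had the largest adjusted p of the 37 in the age comparison (0.139).

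**Figure D3:**
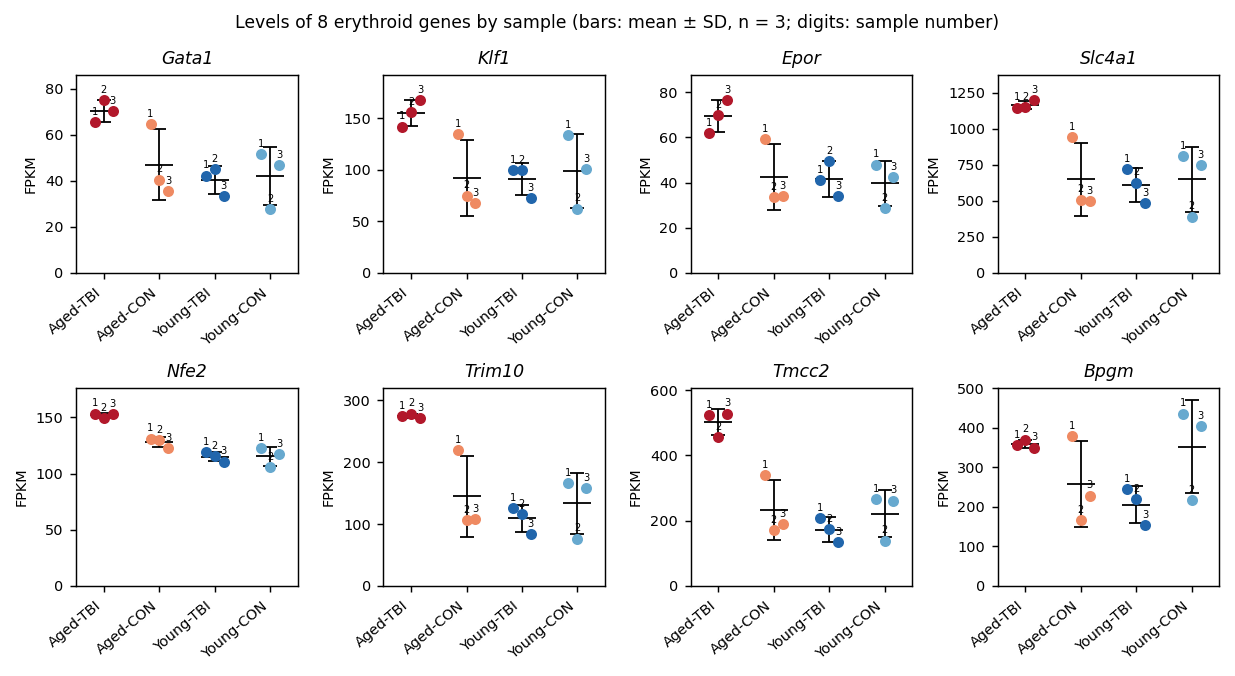
FPKM of 8 genes in each sample, with group means and SD (n = 3) as bars and the sample number beside each point. Aged-TBI points lie above all other points for Gata1, Klf1, Epor, Slc4a1, Nfe2, Trim10 and Tmcc2, while Bpgm is highest in Young-CON 1 and 3.

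The enzymes included the gene with the highest FPKM of the 37, Car2. This fast carbonic anhydrase of red cells (GRCm38 chromosome 3, 14886273 to 14900770) was at 1509.5, 1696 and 1491 FPKM in Aged-TBI marrow, against 1281, 707 and 666 FPKM in Aged-CON marrow. The young groups were at 756, 849 and 593 FPKM in Young-TBI marrow, against 1127, 577 and 959 FPKM in Young-CON marrow. It rose with age after injury (log2 change 1.11, SE 0.27, adjusted p = 0.028). Car1, the slower isoform, was at 224, 271 and 244 FPKM in Aged-TBI marrow, against 253, 146 and 149.8 FPKM in Aged-CON marrow. Aged-CON 1 exceeded 2 of the 3 Aged-TBI samples, and the change with injury in aged mice was 0.47 (adjusted p = 0.234), while Car1 rose with age after injury (log2 change 0.82, SE 0.23, adjusted p = 0.0443). Pklr, the pyruvate kinase of red cells and liver, was at 27.1, 27.1 and 28.5 FPKM in Aged-TBI marrow, against 25.5, 12.04 and 12.8 FPKM in Aged-CON marrow, and the age change was 0.82 (SE 0.25, adjusted p = 0.056).

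Bpgm makes the bisphosphoglycerate that lowers the oxygen affinity of haemoglobin (GRCm38 chromosome 6, 34476207 to 34505613). It was at 357, 370.4 and 350.3 FPKM in Aged-TBI marrow, against 379, 166 and 229 FPKM in Aged-CON marrow. Among young samples it had 245, 219 and 153 FPKM in Young-TBI marrow, against 436, 217 and 405 FPKM in Young-CON marrow. Young-CON 1 and 3 held the highest values of all 12 samples, above every Aged-TBI sample, and Aged-CON 1 also exceeded the Aged-TBI samples. It was the only gene of the 37 with an unadjusted p under 0.05 for injury in young mice, with a change of −0.74 (SE 0.30) that did not pass adjustment (adjusted p = 0.201). Its changes in the other comparisons did not pass either (injury in aged mice log2 change 0.56, SE 0.30, adjusted p = 0.282; age after injury log2 change 0.83, SE 0.30, adjusted p = 0.103).

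Hemgn, a nuclear protein of red cell precursors (GRCm38 chromosome 4, 46393989 to 46413506), was at 302, 335 and 314 FPKM in Aged-TBI marrow, against 267, 134 and 137 FPKM in Aged-CON marrow. Young samples reached 179, 184 and 137 FPKM in Young-TBI marrow, against 226, 110.5 and 192 FPKM in Young-CON marrow. The 3 Aged-TBI samples were the highest of all, and the age change after injury did not pass (log2 change 0.94, SE 0.28, adjusted p = 0.0571).

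The maturation genes held the largest differences. Tmcc2, a coiled-coil membrane protein of the endoplasmic reticulum (GRCm38 chromosome 1, 132356315 to 132391281), was at 524, 455 and 528 FPKM in Aged-TBI marrow, against 340.0, 172 and 190.0 FPKM in Aged-CON marrow. In young mice it was at 209, 175 and 133 FPKM in Young-TBI marrow, against 265, 139 and 261 FPKM in Young-CON marrow. The lowest Aged-TBI sample exceeded Aged-CON 1, the next highest of all, and the mean was 2.92 times that of Young-TBI and 1.48 times Aged-CON 1. It rose with age after injury (log2 change 1.56, SE 0.28, adjusted p = 0.00823), while the injury change in aged mice did not pass (log2 change 1.16, SE 0.28, adjusted p = 0.0999). Trim10, a RING finger protein of terminal red cell differentiation in mice (GRCm38 chromosome 17, 36869574 to 36877833), was at 275, 278 and 271 FPKM in Aged-TBI marrow, against 219.9, 106 and 108 FPKM in Aged-CON marrow. Young mice had 126, 117 and 83.99 FPKM in Young-TBI marrow, against 166, 76.4 and 158 FPKM in Young-CON marrow. Its 3 Aged-TBI samples were close together, and it rose with age after injury (log2 change 1.35, SE 0.31, adjusted p = 0.0238).

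Xpo7, a nuclear exporter that removes histones from the nucleus of mouse erythroblasts as chromatin condenses (GRCm38 chromosome 14, 70654246 to 70766628), was at 83.3, 75.5 and 79.6 FPKM in Aged-TBI marrow, against 59.2, 31.2 and 32.1 FPKM in Aged-CON marrow. Levels in young mice were 37.2, 32.1 and 25.6 FPKM in Young-TBI marrow, against 47.7, 24.7 and 48.5 FPKM in Young-CON marrow. It rose with age after injury (log2 change 1.32, SE 0.27, adjusted p = 0.015), and in aged mice its injury change was 1.01 (SE 0.27, adjusted p = 0.109). All 3 of these genes had their lowest or next to lowest level in Young-TBI 3 and Young-CON 2.

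Ubiquitin ligases were among the genes that rose. Trim58, which targets dynein before the nucleus is expelled, was at 31.00, 28.9 and 31.8 FPKM in Aged-TBI and 17.1, 15.3 and 10.6 FPKM in Young-TBI marrow and rose (log2 change 1.07, SE 0.27, adjusted p = 0.032). Ube2o, which marks ribosomal and other proteins for removal in reticulocytes, was at 115, 112 and 120.1 FPKM in Aged-TBI marrow, against 108, 53.04 and 56.4 FPKM in Aged-CON marrow, and rose with age after injury (log2 change 1.05, SE 0.29, adjusted p = 0.0417). Mkrn1, another RING finger ligase, averaged 339 ± 10.1 FPKM in Aged-TBI and 192 ± 24.5 FPKM in Young-TBI marrow (SD, n = 3 each) and rose (log2 change 0.83, SE 0.23, adjusted p = 0.0417). The remaining 2 maturation genes did not pass. Tspo2, an erythroid cholesterol-binding protein, averaged 95.6 ± 3.93 FPKM in Aged-TBI and 55.1 ± 13.9 in Young-TBI (log2 change 0.82, SE 0.29, adjusted p = 0.0948). Bnip3l, the receptor for mitochondrial clearance in reticulocytes, was at 156, 183 and 149.8 FPKM in Aged-TBI marrow, against 159.6, 99.3 and 121 FPKM in Aged-CON marrow, with Aged-CON 1 above 2 of the 3 injured samples (log2 change 0.51, SE 0.18, adjusted p = 0.0896 with age after injury).

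The 37 genes did not keep fixed proportions. To show this, each gene's log2(FPKM + 1) was taken relative to the mean of the 37 in the same sample and centred on its own mean over the 12 samples. The genes shown were picked after their values were seen, so these are descriptions without a test. Relative to the others, Tmcc2 was at 0.51, 0.24 and 0.45 in Aged-TBI, against 0.06, −0.10 and 0.02 in Aged-CON. In young mice it was at −0.14, −0.38 and −0.36 in Young-TBI, against −0.11, −0.19 and 0.00 in Young-CON. The 3 Aged-TBI samples were the 3 highest, Young-TBI 2 and 3 the lowest, and Young-TBI 1 lay within the Young-CON range. Aged-CON 1 sat with its own group here. For Xpo7 too the Aged-TBI samples were the 3 highest and Young-TBI 2 and 3 the lowest, with 0.37, 0.16 and 0.22 in Aged-TBI and −0.11, −0.29 and −0.21 in Young-TBI.

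Bpgm showed another order. It was at −0.18, −0.19 and −0.29 in Aged-TBI, against 0.07, −0.29 and 0.15 in Aged-CON. In young mice it was at −0.05, −0.19 and −0.30 in Young-TBI, against 0.46, 0.31 and 0.49 in Young-CON. All 3 Young-CON samples, Young-CON 2 included, exceeded the other 9. Bnip3l was lowest in Aged-TBI, at −0.32, −0.16 and −0.46, against −0.12, 0.02 and 0.28 in Aged-CON. Nfe2 was high relative to the others in the samples where they were low, with values of −0.33, 0.49 and 0.39 in Aged-CON and −0.23, 0.41 and −0.17 in Young-CON.

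**Figure D4:**
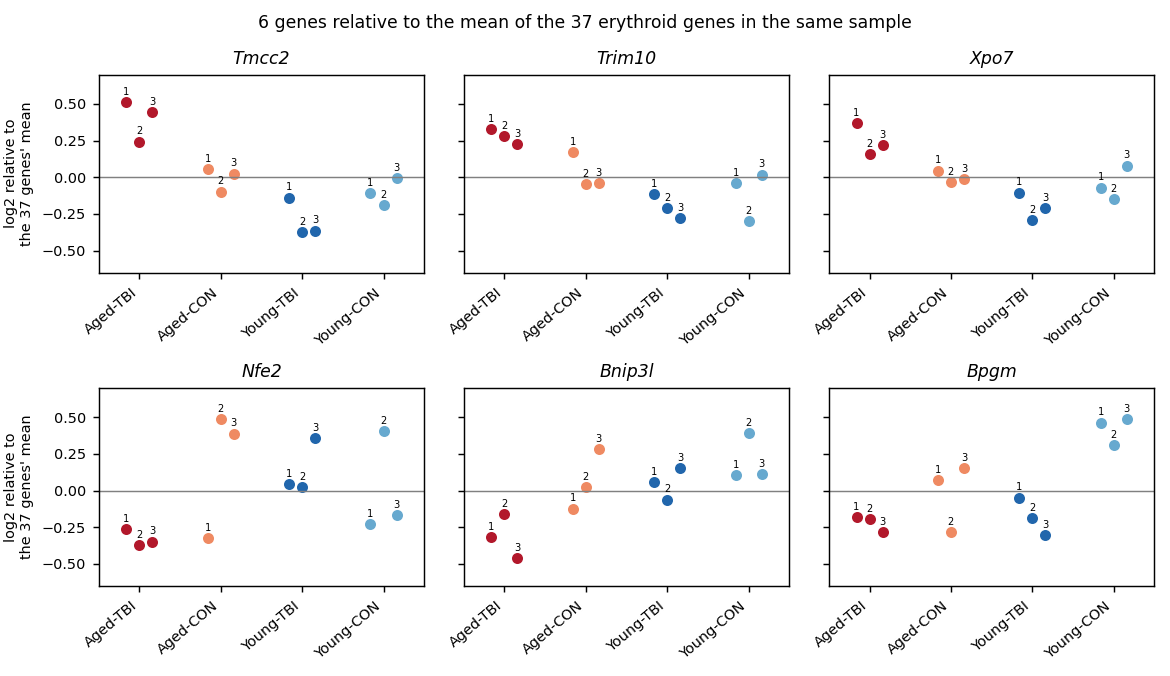
Log2 level of 6 genes relative to the mean of the 37 genes in the same sample, centred on each gene's mean over the 12 samples, with the sample number beside each point. Tmcc2, Trim10 and Xpo7 are above 0 in all 3 Aged-TBI samples and below 0 in all 3 Young-TBI samples, and Bpgm is at 0.31 or more in all 3 Young-CON samples.

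Injury in young mice left these genes without a called change. Limma called 0 of 37, where 5.15% of all tested genes were called in either direction. At an unadjusted p under 0.05, 1 was called (Bpgm, lower), where 20.1% of all genes were. The median log2 change was −0.07, with 31 genes below 0 and 6 above. Gata1, Klf1, Epor, Slc4a1 and Sptb had changes of −0.02, −0.07, 0.08, −0.04 and −0.01 (SE 0.23 to 0.29), each smaller than its SE. After Bpgm, the smallest p-values belonged to Mkrn1 (log2 change −0.40, SE 0.23, adjusted p = 0.364) and Bnip3l (log2 change −0.29, SE 0.18, adjusted p = 0.4). Young-CON 2 set the control range: in 31 genes all 3 Young-TBI samples lay below Young-CON 1 and 3, and in 27 all 3 lay above Young-CON 2. How many of all tested genes lay in these orders was not counted. With both Young-CON 2 and Aged-CON 1 left out, 13 of the 37 were called lower in Young-TBI relative to Young-CON, where 3.9% of all genes were. These libraries were chosen on their values in these same genes, and dropping the lowest young control moves the change downward by construction, so this count is a description only.

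Age without injury likewise gave no call. Limma called 0 of 37 between Aged-CON and Young-CON, where 4.98% of all tested genes were called, and 1 at an unadjusted p under 0.05, where 19.2% of all genes were. That gene was Nfe2, at 131, 129.8 and 123 FPKM in Aged-CON and 123, 106 and 117 FPKM in Young-CON marrow (log2 change 0.15, SE 0.06, adjusted p = 0.225). The median change was −0.02, with 16 genes above 0 and 21 below. Gata1, Klf1, Epor, Slc4a1 and Sptb had changes of 0.16, −0.10, 0.07, 0.003 and 0.01 (SE 0.23 to 0.29). Bpgm had a change of −0.47 (adjusted p = 0.446) and E2f2 one of −0.12 (adjusted p = 0.603). These values rest on 1 library in each group at either extreme. Without Young-CON 2 and Aged-CON 1 the median was −0.59 and 32 of the 37 genes were called lower in Aged-CON, where 15.2% of all genes were. That direction too was fixed by the choice, which removed the lowest young and the highest aged control of these genes, and the count supports nothing.

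Whether injury acted differently in aged and in young mice was tested as an interaction, the aged injury change minus the young one. It was above 0 for all 37 genes, with a median of 0.91 against 0.02 over all tested genes. Limma called 0 of 37, where 0.195% of all genes were called, and 30 were higher at an unadjusted p under 0.05, where 9.57% of all genes were. The smallest adjusted p values were those of Tmcc2 (log2 change 1.49, SE 0.40, adjusted p = 0.106), E2f2 (log2 change 0.55, SE 0.16, adjusted p = 0.12) and Xpo7 (log2 change 1.30, SE 0.39, adjusted p = 0.126). Gata1, Klf1, Epor, Slc4a1 and Sptb had interactions of 0.64, 0.88, 0.67, 0.95 and 0.76 (adjusted p from 0.225 to 0.304). Without Aged-CON 1, 34 of 37 were called higher, where 9.09% of all genes were. Aged-CON 1 was the highest aged control in all 37 genes, so leaving it out raises each interaction by construction. It also changes the shared estimate of the spread. That count is a description only. The interaction uses the Aged-TBI samples and both control groups again, so it adds no independent samples.

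Genes of heme synthesis and iron uptake, which feed haemoglobin, were counted beside the 37. Of 16 genes, 4 rose with age after injury, 0 fell and 12 did not pass, where 2.97% of all tested genes rose and 6.93% fell. Their median log2 change was 0.76. The mitochondrial iron importer Slc25a37 (log2 change 0.94, SE 0.24, adjusted p = 0.0327), the heme enzyme Urod (log2 change 0.85, SE 0.24, adjusted p = 0.0467) and the glycine carrier Slc25a38 (log2 change 0.63, SE 0.18, adjusted p = 0.048) were among those that rose. Alas2, the first enzyme of the pathway, did not pass (log2 change 0.91, SE 0.32, adjusted p = 0.0871), nor did the transferrin receptor gene Tfrc (log2 change 0.77, SE 0.26, adjusted p = 0.08). With injury in aged mice 0 of 16 passed, where 0.323% of all tested genes did, and the median was 0.74. The summed FPKM of the 16 genes was 3554, 3762 and 3736 in Aged-TBI, against 3233, 1814 and 1751 in Aged-CON. It was 2275, 2195 and 1683 in Young-TBI, against 3009, 1523 and 2668 in Young-CON, so the same libraries stood apart. Of 11 globin genes only Hbq1a and Hbq1b passed the level filter, and neither changed past the threshold in any of the 5 comparisons. Of the adult globin genes, Hba-a1, Hbb-bt and Hbb-b2 were listed at 0 in all 12 samples. Hba-a2, Hbb-bs and Hbb-b1 reached at most 0.11, 0.25 and 0.51 FPKM, so haemoglobin RNA itself could not be followed.

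Aged-CON 1 and Young-CON 2 also stood apart from their groups in the sums of proliferation and neutrophil markers. B cell sums did not follow this: Aged-CON 1 (183 FPKM) was close to Aged-CON 3 (175), and Young-CON 2 (732) lay between the other young controls. Genes of proliferating cells, which erythroblasts share, summed to 1990.4, 2101 and 2035 FPKM over 14 genes in Aged-TBI, against 1922, 1387 and 1349.5 in Aged-CON, and to 1849, 1847 and 1650.2 in Young-TBI, against 1762, 1383 and 1659 in Young-CON. All 14 were higher with injury in aged mice at an unadjusted p under 0.05, where 10.8% of all tested genes were. After adjustment in limma 0 passed, where 0.323% of all tested genes did. Neutrophil markers summed to 65558, 65282 and 64359.6 FPKM over 13 genes in Aged-TBI, against 61797, 87424 and 89382 in Aged-CON. The Aged-CON library with the highest erythroid genes thus had the lowest neutrophil sum of its group. S100a8, S100a9 and Ngp make up most of this sum, and not every marker followed it. Mpo was at 896 FPKM in Aged-CON 1, against 824 and 827 FPKM in Aged-CON 2 and 3. In young mice the neutrophil sum was 71111, 61638 and 70307 FPKM in Young-TBI, against 58316, 67328 and 54956 in Young-CON. Of the 13 neutrophil genes, 4 rose with injury in young mice, where 235 of all 11767 tested genes rose. The list did not move together, with log2 changes from −0.35 to 1.16. Mpo was at 1234, 940 and 1142 FPKM in Young-TBI, against 586, 668 and 571 in Young-CON. Retnlg, a mature neutrophil gene, was at 1807, 1595 and 1659 FPKM in Young-TBI, against 2009, 2256 and 1905 in Young-CON. Both were picked after their values were seen. With age after injury 4 fell, where 6.93% of all tested genes fell, and changes over the 13 ran from −0.80 to 0.29. In the interaction 4 were called lower, where 21 of all tested genes were. B cell markers summed to 110.3, 118 and 129.7 FPKM over 10 genes in Aged-TBI, against 183, 134 and 175 in Aged-CON, and to 276, 389.8 and 304 FPKM in Young-TBI, against 601, 732 and 851 in Young-CON. All 10 fell with age after injury, where 6.93% of all tested genes fell, and all 10 with age without injury, with median log2 changes of −1.49 and −2.07. With injury in young mice 7 of the 10 fell, where 3.15% of all tested genes fell. FPKM is a share of the library, and the part of these shifts in the erythroid values was not tested.

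Megakaryocytes share 5 of the regulators, and their markers had a median log2 change of −0.87 with age after injury. The 13 markers, none at 0 throughout a group, summed to 229, 502 and 281 FPKM in Aged-TBI, against 324, 366 and 674 in Aged-CON. In young mice they summed to 435, 648 and 644 in Young-TBI, against 368, 368 and 330.1 in Young-CON. In that comparison 0 passed in limma; an unadjusted p under 0.05 was reached by 9, all of them lower, where 19.4% of all tested genes were lower at that p. Of 8 brain and muscle markers that marrow should lack, 3 passed the level filter. These were Mbp at 16.8 to 25.0 FPKM, Gfap at 2.59 to 7.76 FPKM and Tnnt3 at 0.860 to 2.34 FPKM over the 12 samples. Among the others, the neuronal gene Snap25 was listed at 0 in all 12 samples and Syt1 reached at most 0.0391 FPKM.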

How the data were processed

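RNA was measured in 12 whole bone marrow samples, 3 in each of 4 groups. Per the labels' protocols, TRIzol gave total RNA, and the library kit was SMARTER mRNA-seq. The authors deposited a table of FPKM per gene symbol. Per the submitters' processing notes the build is GRCm38 (mm10) and R 4.3.3 was used; nothing in the sources used here names the aligner, the counting tool, the annotation or the use of strand. FPKM is a share of a library, so a rise of abundant genes lowers the others. Epb41 and Epb42 were found under their older names, and 27 entries whose names a spreadsheet had turned into dates were not named.

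A level of at least 1 FPKM in 3 or more samples was required, which kept 11767 genes. Values were taken as log2(FPKM + 1), a scale that understates the change of low genes, and modelled in limma (version 3.58.1, R 4.3.3) with a variance trend. All 12 samples entered 1 fit with 1 mean per group. Each test was two-sided, with Benjamini-Hochberg adjustment over all kept genes. The words rose, fell and called are used at an adjusted p under 0.05. The fit was tested on simulated data. The 5 comparisons share samples: Aged-TBI enters both the injury comparison in aged mice and the age comparison after injury, and each control group enters 2 comparisons and the interaction.

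Low FPKM values were whole multiples of 1 fragment for 99.97% of kept genes within a tolerance of 0.05, which gave 12.3 to 15.8 M fragments per sample and an alternative fit on counts (voom). Samples with the same number in different groups deviated together weakly at most (correlations from −0.22 to 0.29 over 18 pairs), and the main fit used no replicate block. Between Aged-CON and Young-CON the correlations were 0.29, 0.23 and −0.09 for samples 1, 2 and 3. Whether same-numbered controls were handled together was not tested. The genes, their roles, the related lists and the cell type markers were chosen with earlier results of these data known. For injury in aged mice and for age after injury every gene could be named. For the interaction, injury in young mice and age without injury, Gata1, Klf1, Epor, Slc4a1, Sptb and the 3 with the smallest p were named. Of the related lists only called genes, Alas2, Tfrc and Kit were, and 1 called gene is not reported here. Positions are those of GENCODE M21 on GRCm38, and promoters those of RefSeq on GRCm38.p6. Alternatives changed the pseudocount, the filter, the scaling between samples, the variance trend, sample weights, the samples in the fit, the unit and the block, and left out each sample in turn.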

Additional observations from a re-analysis of the deposited data

How the results depend on the processing

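Under the 12 other settings and the 12 fits that each left out 1 sample, the changes of all 37 genes stayed above 0 for injury in aged mice and for age after injury. The number of genes called did not hold. For injury in aged mice it was 0 and became 37 with a weight per sample and 37 with both Young-CON 2 and Aged-CON 1 left out (0 to 37 over the fits without 1 sample, 37 only without Aged-CON 1). These settings raised the calls over all 11767 tested genes too. For injury in aged mice those went from 38 to 3557 with weights, 3527 with both left out and 3266 without Aged-CON 1. For age after injury it was 17 and became 4 with no filter on low values, 11 with no variance trend, 37 with weights, 37 in a fit of only the 2 groups, 26 with voom on fragments and 37 with both left out (2 to 37 without 1 sample). Calls over all tested genes were 1165 in the main fit of this comparison. In the same order they became 901, 1052, 2740, 2261, 1303 and 2571. The interaction count of 0 became 37 with weights and 37 with both left out (0 to 34 without 1 sample), and its median of 0.91 became 1.50 with both left out. Over all tested genes the interaction calls went from 23 to 2977 with weights and 3043 with both left out. The count of 0 for injury in young mice became 1 with weights and 13 with both left out, and that for age without injury 2 and 32, with a median of −0.59. Over all tested genes, injury in young mice went from 606 calls to 1595 and 902 under these settings. Age without injury went from 586 to 2508 and 2730. Young-CON 2 and Aged-CON 1 were chosen on their values in these genes, so the direction of the shift without them is fixed by the choice. The weights gave Aged-CON 1 the lowest value of the 12 samples (0.206). With a replicate block 21 of the 37 genes were called for age after injury, where 1085 of all tested genes were, and 0 in every other comparison. Correlations between same-numbered samples, at most 0.29, did not show a pairing across the groups. The genes below had changes near 0 that took the opposite sign. For injury in young mice, Epor was at −0.012 with weights and −0.13 with both left out. Without 1 sample the ranges there were −0.13 to 0.23 for Epor, −0.29 to 0.14 for Gata1, −0.37 to 0.18 for Klf1, −0.32 to 0.20 for Sptb and −0.37 to 0.15 for Slc4a1. For age without injury, Slc4a1 was at −0.034 with quantile normalization; with weights, Slc4a1, Gata1, Epor and Sptb were at −0.38, −0.14, −0.21 and −0.32, and with both left out at −0.63, −0.36, −0.41 and −0.59. Without 1 sample the ranges there were −0.33 to 0.20 for Slc4a1, −0.11 to 0.33 for Gata1, −0.19 to 0.22 for Epor, −0.30 to 0.22 for Sptb and −0.40 to 0.15 for Klf1. Over all genes, age after injury gave 350 higher and 815 lower calls, against 489 and 557 with upper quartile scaling and 462 and 549 with quantile normalization. The cause of these differences was not tested beyond the samples left out. With 3 samples per group, the spread between samples and not depth limits these values.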
